A study of Mus musculus with 12 samples.

Results

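Splicing factor and spliceosome genes were taken as every gene whose array symbol begins with Srsf, Sf3a or Sf3b and Lsm followed by a digit, or with Hnrnp, Snrp, Prpf or Rbfox. This gave 67 of the 12393 genes with a symbol of their own on the array, and 66 of them were among the 8256 genes whose signal was high enough to test. The exception was Lsm14a, whose log2 signal stayed between 2.29 and 2.42 on all 12 arrays. The members were 9 SR protein genes (Srsf), 18 hnRNP genes, 8 genes of small nuclear ribonucleoprotein proteins (Snrp), 9 SF3 genes, 10 Prpf genes, 10 Lsm genes and 3 Rbfox genes. The rule uses symbols alone, and where a gene had several probe sets the 1 with the highest mean over all arrays stood for it.

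The arrays measured striatal RNA of C57Bl/6 mice, 1 array per mouse and 3 mice in each of 4 groups. The groups were TIF-IAD1RCre mutants at 9 weeks, controls at 9 weeks, TIF-IAD1RCre mutants at 13 weeks and controls at 13 weeks. TIF-IA, the product of Rrn3, recruits RNA polymerase I to the genes of ribosomal RNA. D1R-Cre recombines in cells that make the D1 dopamine receptor, so the striatal RNA also came from cells in which no recombination was aimed at. The labels do not say which alleles or transgene the controls carried, and the replicates are named as biological. The series text also mentions 5 GeneChips per condition, and the 3 arrays of each group in the files were analysed. Series text gives the aim of the profiling as the molecular basis of neuron survival and death.

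Introns are cut from pre-mRNA by the spliceosome, which is built from small nuclear RNAs carrying rings of Sm or LSm proteins and from many further proteins. SR proteins and hnRNP proteins bind the pre-mRNA and shift which splice sites are used, often in opposite directions. The Rbfox proteins are regulators enriched in neurons and muscle, and RBFOX3 is the antigen known as NeuN that histologists use to mark mature neurons.

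Several facts about the samples bear on every value below. Rrn3 had log2 signals of 6.90, 6.96 and 6.91 in mutants and 8.0, 7.97 and 8.20 in controls at 9 weeks, and 7.72, 7.58 and 7.18 in mutants and 7.96, 7.54 and 8.04 in controls at 13 weeks. It was lower in mutants at 9 weeks by limma (log2 difference -1.13 ± 0.18 SE, n = 3 per group, adjusted p = 0.00748) and did not pass at 13 weeks (-0.35, adjusted p = 0.128). The sources used here do not place its probe set inside or outside the deletion. The labels name medium spiny neurons as the cell type, and the 12 measured markers of these neurons were present, but markers of astrocytes, microglia and oligodendrocytes were also well above the filter in all groups, so the RNA was that of the tissue. Control mouse 3 at 13 weeks stood apart. Its array correlated at 0.936 and 0.944 with the other controls of its age, which correlated at 0.991 with each other. Its signal for 18S ribosomal RNA was 8.85, against 5.52 and 4.80 in the other two. Control mouse 3 at 9 weeks also had a high 18S signal, 8.29, while its array correlated at 0.989 to 0.990 with the others of its group. Mutant mouse 3 at 9 weeks stood apart less, at 0.973 and 0.982. Xist and Eif2s3y showed that all 3 mutants at 13 weeks were female, while control mouse 3 was the only female of its group. Sex and genotype therefore overlapped at that age. Every 13-week comparison without control mouse 3 sets female mutants against male controls, so sex and genotype cannot be told apart there. At 9 weeks mutant mouse 1 and control mouse 3 were the only females of their groups, so sex and age overlapped among the mutants. With sex as a term in the fit, 24 members passed at 13 weeks, 16 higher and 8 lower. The share of all genes in that fit is not given here, so the count does not set the members apart from other genes.

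At 13 weeks the 3 Rbfox genes and Snrpn had the smallest adjusted p of the members that were lower in mutants. Rises passed in 50% of Snrp genes, 33.3% of Lsm genes and 22.2% each of hnRNP and SF3 genes, against 23.4% of all genes. The share was 11.1% in SR genes and 0% in Prpf and Rbfox genes. A difference below is mutant minus control on the log2 scale, and a gene passed at an adjusted p under 0.05 over all 8256 genes. Of the 66 members, 22 passed (33.3%), against 45.3% of all genes tested. The 14 that were higher were 21.2% of members (23.4% of all genes), and the 8 that were lower were 12.1% (21.9% of all genes). The members' median difference was 0.183 and that of all genes 0.00333. Differences of the members were also smaller in size, with a median absolute value of 0.412 against 0.53 over all genes. The counts leaned on few mice. Of the members, 10 passed when mutant mouse 1 at 13 weeks was left out and 10 without mutant mouse 2. Without control mouse 3, 20 passed (30.3%, against 48% of all genes). Of these, 11 were higher (16.7%, against 24.2% of all genes) and 9 lower (13.6%, against 23.8%). The family counts given below without that mouse stand beside the same shares of all genes. Median centring of the arrays moved the median of all genes at 13 weeks to -0.16 and the split of called members to 4 higher and 12 lower. No share of all genes is given here for median centring or for the fits without mutant mouse 1 or mutant mouse 2. Those counts therefore do not show a change particular to the members.

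**Figure D1:**
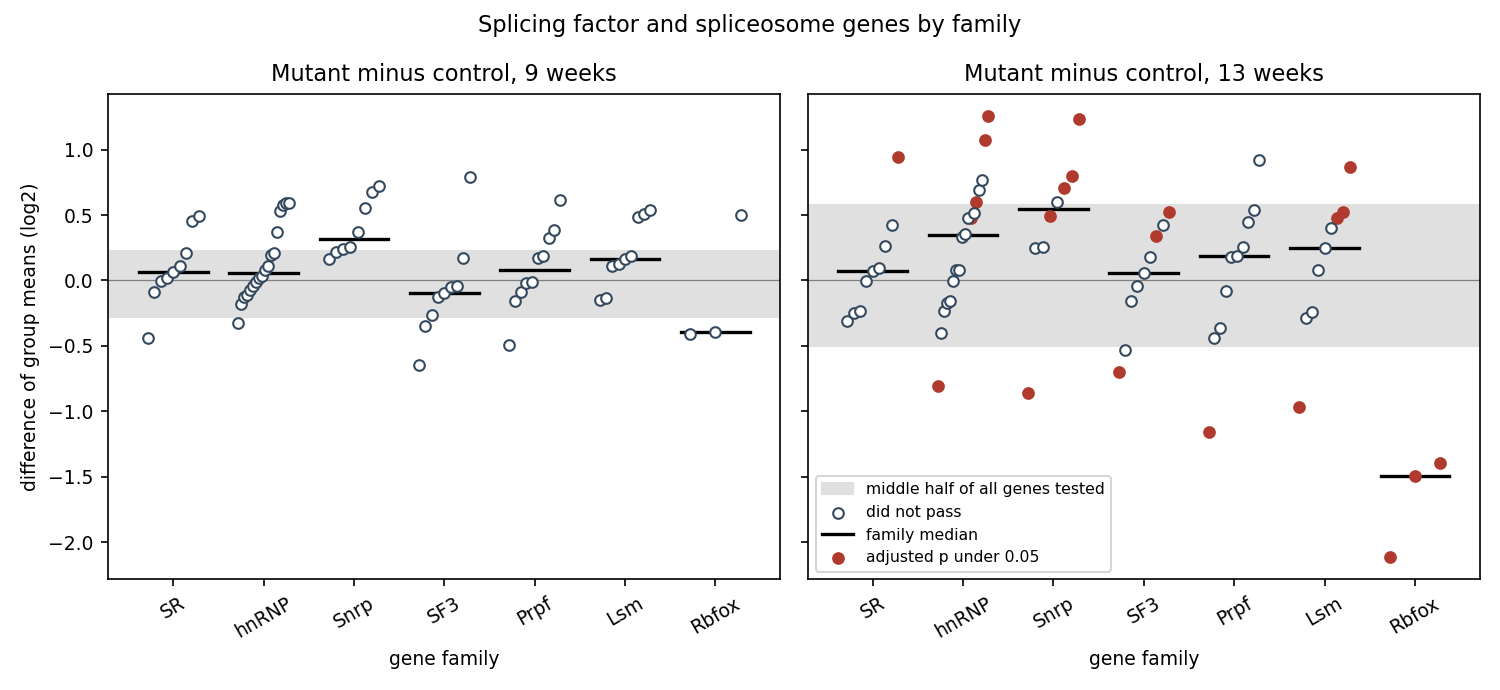
Difference of group means, mutant minus control, on the log2 scale (vertical axis) for each of the 66 tested members by family at 9 weeks (left) and 13 weeks (right). Filled points passed an adjusted p under 0.05, bars are family medians and the grey band holds the middle 50% of all 8256 genes; at 13 weeks all 3 Rbfox genes lie below the band and the Snrp median is 0.547 (0.313 without control mouse 3, where the Lsm median is 0.425).

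Rbfox3, the NeuN gene, had the largest fall of any member. Its log2 signals were 6.65, 6.83 and 7.32 in the mutants at 13 weeks and 8.95, 8.72 and 9.48 in the controls of that age. Every mutant lay more than 1 log2 unit below every control. Rbfox3 was 4.34-fold lower (difference -2.12 ± 0.24 SE, n = 3 per group, limma adjusted p = 2.58e-05). Without control mouse 3, the highest of the controls, the difference was -1.90.

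Rbfox1, which encodes a regulator of neuronal alternative exons, had 10.10, 10.18 and 10.54 in the mutants at 13 weeks and 11.82, 11.74 and 11.74 in the controls. The groups did not overlap and the controls were tightly grouped. The fall was 2.82-fold (-1.49 ± 0.18, adjusted p = 4.46e-05). Control mouse 3 sat with its group here, and without it the difference was -1.51.

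Rbfox2, the more broadly expressed paralog, had 5.28, 5.55 and 5.49 in the mutants and 6.95, 6.26 and 7.29 in the controls at 13 weeks. The mutants were again all below the controls, by 2.63-fold (-1.39 ± 0.29, adjusted p = 0.00209). Its other 3 probe sets over the filter were lower too, with differences of -0.37, -0.51 and -2.39. Those at -0.37 and -0.51 had low mean signals of 3.42 and 3.67 and did not pass on their own. That at -2.39 did (limma adjusted p = 0.0027). Unlike its paralogs, Rbfox2 did not differ between 13-week and 9-week mutants with the probe set used (difference -0.05, limma adjusted p = 0.924). Its other 3 probe sets differed by -0.26, -0.37 and -0.86 in that comparison, and none passed.

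At 9 weeks none of the 3 Rbfox genes passed. Rbfox1 had 11.87, 11.84 and 11.31 in mutants and 12.02, 12.02 and 12.20 in controls, a difference of -0.41 (adjusted p = 0.219). Rbfox3 had 8.67, 8.61 and 8.11 in mutants and 8.93, 8.74 and 8.90 in controls, a difference of -0.39 (adjusted p = 0.372). In both genes all 3 mutants lay below all 3 controls, and mutant mouse 3, which stood apart, was the lowest. Rbfox2 went the other way at that age, with 5.77, 5.74 and 4.95 in mutants and 4.62, 5.20 and 5.15 in controls, groups that overlapped. The other 3 probe sets of Rbfox2 differed by 0.02, 0.25 and -0.73 at 9 weeks, and the mean of all its probe sets by 0.01, so the direction at that age rested on the probe set used.

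The genotype difference changed between the ages in all 3. The interaction (the 13-week difference less the 9-week difference) was -1.72 ± 0.34 for Rbfox3 (adjusted p = 0.0041), -1.09 ± 0.25 for Rbfox1 (adjusted p = 0.0113) and -1.89 ± 0.41 for Rbfox2 (adjusted p = 0.00763). Rbfox1 and Rbfox3 were lower in 13-week than in 9-week mutants, by -1.40 (adjusted p = 0.000103) and -1.53 (adjusted p = 0.000435). With the probe set used for Rbfox2 the controls differed by age instead. Rbfox2 was the member, 1 of 66, that passed between 13-week and 9-week controls, where 0.145% of all genes passed (0.0848% as higher). It was 3.59-fold higher in the older controls (1.84 ± 0.29, limma adjusted p = 0.0327). The other 3 probe sets of Rbfox2 differed by 0.13, 0.39 and 0.80 between control ages. Their interactions were -0.39, -0.76 and -1.66, and none of them passed in either comparison. The call between control ages held in 2 of the 12 fits that left out 1 mouse. Without control mouse 3 at 13 weeks it had a difference of 1.61 and a limma adjusted p of 0.0522.

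**Figure D2:**
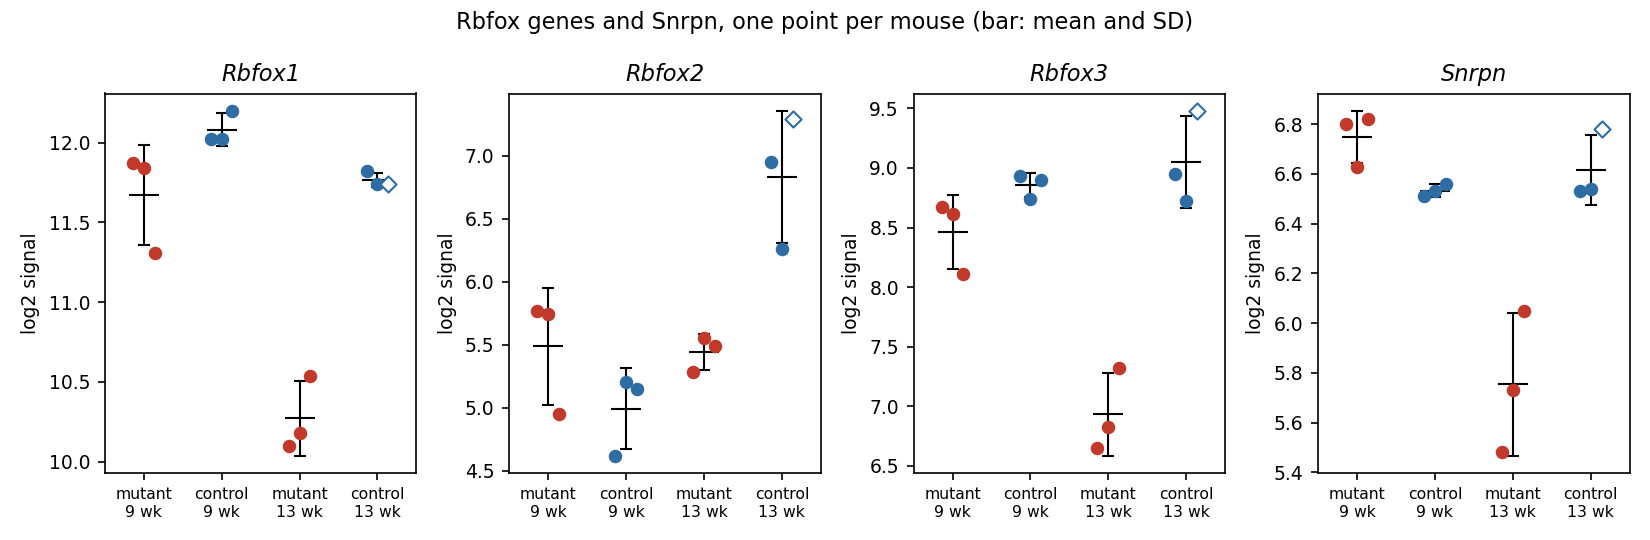
Log2 signal (vertical axis) of Rbfox1, Rbfox2, Rbfox3 and Snrpn in the 4 groups, 1 point per mouse with the mean and SD (n = 3), and an open diamond for control mouse 3 at 13 weeks. The 13-week mutants lie below all controls of their age in each panel, and the 13-week controls of Rbfox2, at 6.26 to 7.29, lie above the 9-week controls, at 4.62 to 5.20.

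Snrpn encodes SmN, a form of the Sm ring protein SmB found mainly in neurons, from an imprinted locus shared with Snurf. Its log2 signals were 5.48, 5.73 and 6.05 in mutants and 6.53, 6.54 and 6.78 in controls at 13 weeks. All mutants lay below all controls, by 1.82-fold (-0.86 ± 0.16 SE, n = 3 per group, limma adjusted p = 0.00106). At 9 weeks the mutants lay above the controls, with 6.80, 6.63 and 6.82 in mutants and 6.51, 6.53 and 6.56 in controls, though the difference of 0.22 did not pass (adjusted p = 0.487). The interaction was -1.08 ± 0.23 (adjusted p = 0.00668), and 13-week mutants were lower than 9-week mutants (-0.997, adjusted p = 0.000587). Another 4 probe sets are annotated to Snurf and Snrpn together and were left out of the test. Their differences at 13 weeks were -0.93, -0.99, -0.34 and -0.87, so each was lower in mutants as well. At 9 weeks they differed by -0.003, -0.01, 0.58 and -0.05, so 3 of the 4 did not show the higher mutant value of the probe set used. The paralog Snrpb, which encodes SmB itself, had a difference of 0.25 at 13 weeks (adjusted p = 0.211).

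Markers of the cells in the tissue moved with these falls. At 13 weeks 12 of 12 measured medium spiny neuron markers were lower in mutants (median difference -2.39), and their log2 signals summed to between 107 and 118.7 in mutants and between 139.5 and 144.9 in controls. All 8 markers of neurons in general were lower, with a median of -1.11 and sums of 85.63 to 90.21 in mutants and 94.53 to 98.71 in controls. Astrocyte markers were higher for 9 of 9 (median 2.10, sums 100.6 to 102.5 in mutants and 78.23 to 78.62 in controls). Microglial markers were higher for 9 of 10 (median 2.55, sums 110.9 to 114.8 in mutants and 87.79 to 90.88 in controls), the exception being P2ry12. Of 6 oligodendrocyte markers 1 passed (sums 73.71 to 74.81 in mutants and 70.91 to 73.47 in controls), and 3 of 4 tested endothelial markers were higher, while Pecam1 and Kdr stayed under the filter. Of 6 markers of interneurons and thalamic neurons 1 passed, which was higher in mutants, with sums of 40.69 to 42.80 in mutants and 44.31 to 49.50 in controls. At 9 weeks 3 of 12 medium spiny neuron markers were lower (median -0.63), and no marker of the other types named here passed. Fewer cells of a type and less RNA per cell cannot be told apart in tissue RNA, and the part of these markers in the differences of the splicing genes was not tested.

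Of 8 Snrp genes, 4 passed as higher at 13 weeks, 1 (Snrpn) passed as lower and 3 did not pass. The share called was 62.5%, against 45.3% of all genes, and the family median was 0.547. The Snrp calls without control mouse 3 were 2 higher and 1 lower, with a median of 0.313. At 9 weeks all 8 differences were positive with a median of 0.313, but none passed. In 6 of 8 every mutant lay above every control (75%, against 15% of all genes). These signs are of the probe set used. At that age other probe sets of Snrpd3 differed by -0.29 and -0.55 and another of Snrpb2 by -0.30. Those of Snrpa1 and Snrpg and the remaining one of Snrpb2 were positive. Snrpa, Snrpd1 and Snrpd2, which have only probe sets with several symbols, were left out. They differed by -0.04, 0.36 and 0.21 at 9 weeks and by -0.29, 1.17 and -0.36 at 13 weeks. Quantile normalization and median centring left the differences of all 8 tested Snrp genes positive at 9 weeks. At 13 weeks median centring left 7 of 8 positive but 0 of the rises past the threshold.

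Snrpa1 encodes a protein of the U2 particle that recognises the branch point. It had 10.36, 10.62 and 9.87 in the 13-week mutants and 9.57, 9.87 and 7.70 in the controls, so the lowest mutant equalled the highest control and control mouse 3 lay far below. The difference was 1.24 ± 0.44 (2.36-fold, adjusted p = 0.0368), and 0.56 without control mouse 3 (adjusted p = 0.0381). Snrpa1 passed in 8 of the 12 fits that left out 1 mouse, and the call was lost with median centring and with no filter on low signals. At 9 weeks the values were 10.08, 9.83 and 10.02 in mutants and 9.37, 9.22 and 9.32 in controls. Those groups did not overlap, with a difference of 0.67 (adjusted p = 0.411).

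Snrpe encodes SmE, a subunit of the Sm ring. Its signals were 11.81, 11.85 and 11.69 in the 13-week mutants and 11.17, 11.47 and 10.32 in the controls. All mutants were higher (0.80 ± 0.24, adjusted p = 0.0184), and 0.46 without control mouse 3 (adjusted p = 0.0198). The call was lost without mutant mouse 1 or mutant mouse 2 at 13 weeks, where the adjusted p reached 0.0609.

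Snrpg encodes SmG, its neighbour in the ring, and had 12.29, 12.47 and 11.86 in the 13-week mutants and 11.64, 11.90 and 10.97 in the controls. The lowest mutant fell just under the highest control. The difference of 0.70 ± 0.24 passed (adjusted p = 0.0325) but became 0.44 without control mouse 3 (adjusted p = 0.09). At 9 weeks the mutants lay between 11.92 and 12.10 and the controls between 11.01 and 11.43, a difference of 0.72 with no overlap (adjusted p = 0.109).

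Snrpb2, for another U2 protein, was the remaining Snrp gene that rose at 13 weeks, with 10.44, 10.21 and 10.38 in mutants and 10.04, 10.03 and 9.48 in controls (0.49 ± 0.17, adjusted p = 0.0345). A further probe set of Snrpb2 differed by 0.57 and another, with a low mean signal of 3.95, by -0.59. The call was lost without control mouse 3 and without any 1 of the 3 mutants of that age, with an adjusted p of up to 0.113.

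Several Lsm products form the ring on the U6 small nuclear RNA or a related ring in mRNA decay. Among the 9 tested Lsm genes, 3 were higher at 13 weeks and 1 was lower, with a median of 0.247. The share called was 44.4%, against 45.3% of all genes. The Lsm calls were 2 higher and 1 lower without control mouse 3, with a median of 0.425. Lsm8, the subunit particular to the nuclear ring, had 10.20, 10.09 and 10.02 in mutants and 9.38, 9.47 and 8.87 in controls. The groups were well separated (0.86 ± 0.18, 1.82-fold, adjusted p = 0.00206), and the difference was 0.68 without control mouse 3. At 9 weeks Lsm8 had 10.17, 10.05 and 9.76 in mutants and 9.46, 9.37 and 9.54 in controls, also without overlap (0.54, adjusted p = 0.106). Lsm4 had 10.25, 10.49 and 10.34 in mutants and 9.77, 10.10 and 9.78 in controls at 13 weeks (0.48, adjusted p = 0.0351). It passed in 6 of the 12 fits that left out 1 mouse. Lsm3 differed by 0.53 (adjusted p = 0.0422) and passed in 3 of 12 such fits. Without control mouse 3 the adjusted p of Lsm4 was 0.0609 at 13 weeks.

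Lsm14b, an Lsm-domain protein of cytoplasmic RNA granules, was the Lsm gene that was lower. It had 7.90, 8.02 and 7.93 in the 13-week mutants and 9.41, 9.21 and 8.13 in the controls. The mutants lay below all controls, and control mouse 3 was close to them. The difference was -0.97 ± 0.28 (adjusted p = 0.0147) and -1.36 without that mouse. The call was lost with sex as a term and without control mouse 1 or control mouse 2 at 13 weeks, where the adjusted p reached 0.0544.

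The promoter sequences of the higher Snrp and Lsm genes are shown because these genes encode parts of related rings and particles and their differences had the same sign at both ages. RefSeq windows (build GRCm38.p6) were matched by symbol for 6 of the 7 genes; Lsm4 is named only. Each line gives the 160 bases before the annotated start, 5′ to 3′ on the gene's own strand, with any CCGGAA or its reverse complement TTCCGG, the core of sites bound by ETS factors, in capitals.
Snrpa1, chr7:66060176-66060335, plus strand: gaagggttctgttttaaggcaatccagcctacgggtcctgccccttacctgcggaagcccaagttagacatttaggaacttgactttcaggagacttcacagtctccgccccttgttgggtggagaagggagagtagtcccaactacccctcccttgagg
Snrpb2, chr2:143062909-143063068, plus strand: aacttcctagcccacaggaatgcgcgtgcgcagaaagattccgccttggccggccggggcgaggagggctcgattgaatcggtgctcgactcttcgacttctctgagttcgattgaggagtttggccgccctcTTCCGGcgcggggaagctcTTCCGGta
Snrpe, chr1:133610281-133610440, minus strand: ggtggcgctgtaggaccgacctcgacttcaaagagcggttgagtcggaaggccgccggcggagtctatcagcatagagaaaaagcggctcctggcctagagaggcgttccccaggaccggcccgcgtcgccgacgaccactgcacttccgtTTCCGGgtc
Snrpg, chr6:86371380-86371539, plus strand: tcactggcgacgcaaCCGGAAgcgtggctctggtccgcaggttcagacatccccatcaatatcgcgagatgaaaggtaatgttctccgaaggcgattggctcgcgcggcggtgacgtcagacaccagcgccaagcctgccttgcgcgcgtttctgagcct
Lsm3, chr6:91515875-91516034, plus strand: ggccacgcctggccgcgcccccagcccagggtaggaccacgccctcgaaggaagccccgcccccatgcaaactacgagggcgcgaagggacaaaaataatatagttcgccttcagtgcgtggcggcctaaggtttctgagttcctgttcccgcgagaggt
Lsm8, chr6:18848475-18848634, plus strand: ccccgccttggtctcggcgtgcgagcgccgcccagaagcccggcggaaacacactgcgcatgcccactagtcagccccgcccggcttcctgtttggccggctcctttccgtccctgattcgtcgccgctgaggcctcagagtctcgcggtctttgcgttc

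The motif was found in 3 of the 6 windows, with 2 matches in Snrpb2 and 1 each in Snrpe and Snrpg. Over all 32851 RefSeq windows of the same length, 9.57% held CCGGAA on either strand, and 24 of the 80 windows of 58 members did (30%). The E-box CACGTG, which reads the same on both strands and cannot overlap the other motif, was in 0 of the 6 windows, in 4.5% of all windows and in 5.0% of those of members. The motifs were picked after the expression values were known, and a match is a string of letters, not a site. The windows of all genes were not limited to the genes tested here, and a gene can have several. Shares of members and of all windows are therefore of unlike sets, and their difference was not tested.

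**Figure D3:**
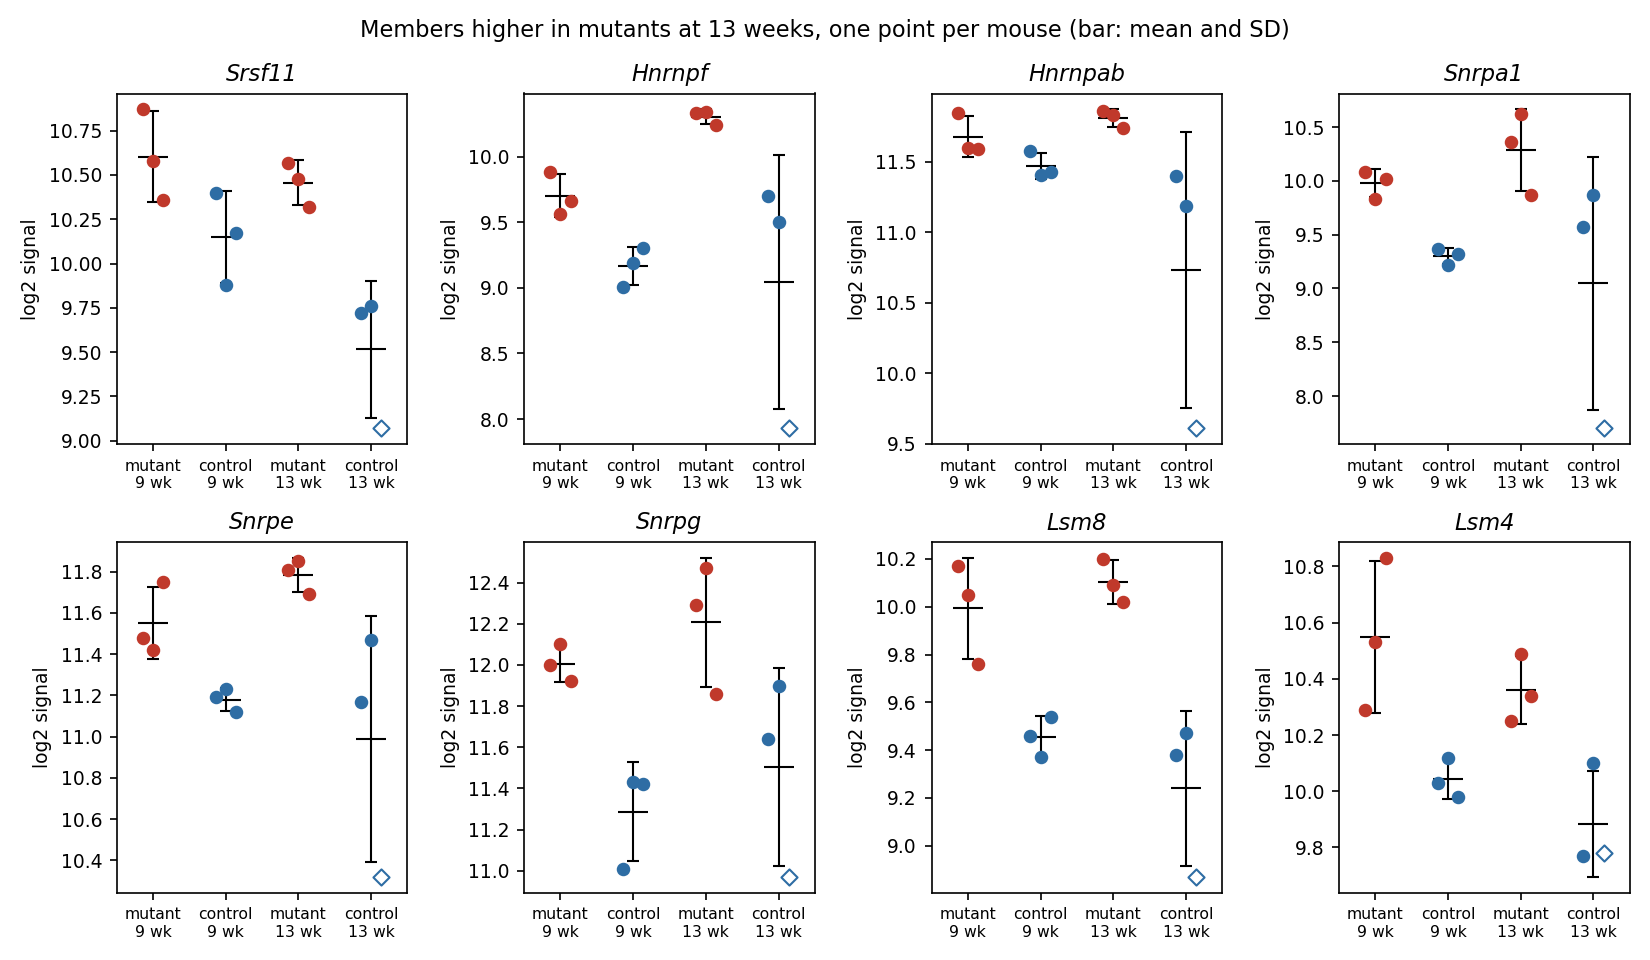
Log2 signal (vertical axis, scaled per panel) of 8 members that were higher in 13-week mutants, 1 point per mouse with the mean and SD (n = 3), and an open diamond for control mouse 3 at 13 weeks. That mouse is the lowest of its group in 7 of the 8 panels, Lsm4 being the exception, and in all panels but that of Srsf11 the 9-week mutants also lie above the 9-week controls.

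Of 18 hnRNP genes, 4 were higher at 13 weeks (22.2%, against 23.4% of all genes), 1 was lower (5.56%, against 21.9%) and 13 did not pass, with a median of 0.345. The hnRNP calls became 2 higher and 2 lower without control mouse 3, and the median 0.0925; this mouse lay more than 0.5 log2 below both other controls in 9 of the 18 genes. The same held for 5 of 8 Snrp genes, and for 20 of all 66 members, while it lay as far above in 11.

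Hnrnpf, whose protein binds G-rich stretches near exons, had 10.33, 10.34 and 10.24 in mutants and 9.70, 9.50 and 7.93 in controls at 13 weeks. The mutants were all higher and closely grouped (1.26 ± 0.36, 2.39-fold, adjusted p = 0.0127). Without control mouse 3 the difference was 0.70 (adjusted p = 0.0019), smaller by more than 1.5 times on the log2 scale but still past the threshold. Its other 3 probe sets differed by 0.43, 1.08 and 0.68. At 9 weeks Hnrnpf had 9.88, 9.56 and 9.66 in mutants and 9.01, 9.19 and 9.30 in controls (0.53, adjusted p = 0.427).

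Hnrnpab, for an AU-rich RNA binding protein, had 11.86, 11.83 and 11.74 in mutants and 11.40, 11.19 and 9.61 in controls at 13 weeks (1.08 ± 0.36, adjusted p = 0.0275), and a difference of 0.52 without control mouse 3. Its probe sets disagreed: another one, with a mean signal of 10.8, differed by -1.27, and the mean of all its probe sets differed by -0.01. The direction for Hnrnpab therefore depended on the probe set.

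Hnrnpdl, a paralog of Hnrnpd, had 12.48, 12.41 and 12.49 in mutants and 12.33, 12.06 and 11.56 in controls (0.48, adjusted p = 0.0468). It passed in 1 of the 12 fits that left out 1 mouse. Hnrnph3, a paralog of Hnrnpf, was the fourth that rose (0.60, adjusted p = 0.049) and passed in 3 of 12.

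Hnrnpl, whose protein binds CA repeats, was the hnRNP gene that was lower. It had 5.16, 5.28 and 5.27 in mutants and 5.98, 5.62 and 6.54 in controls at 13 weeks. The mutants lay below all controls (-0.81 ± 0.20, 1.75-fold, adjusted p = 0.00686), and the difference was -0.56 without control mouse 3 (adjusted p = 0.0082). At 9 weeks it differed by -0.04.

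Hnrnpk, for a poly-C binding protein, shows how much 1 array carried. It had 12.48, 12.44 and 12.17 in mutants and 12.35, 12.11 and 10.56 in controls at 13 weeks, and its difference of 0.69 did not pass (adjusted p = 0.143). Hnrnpu, named after its values were seen, had a difference of 0.48 with all arrays, which became -0.18 without control mouse 3.

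**Figure D4:**
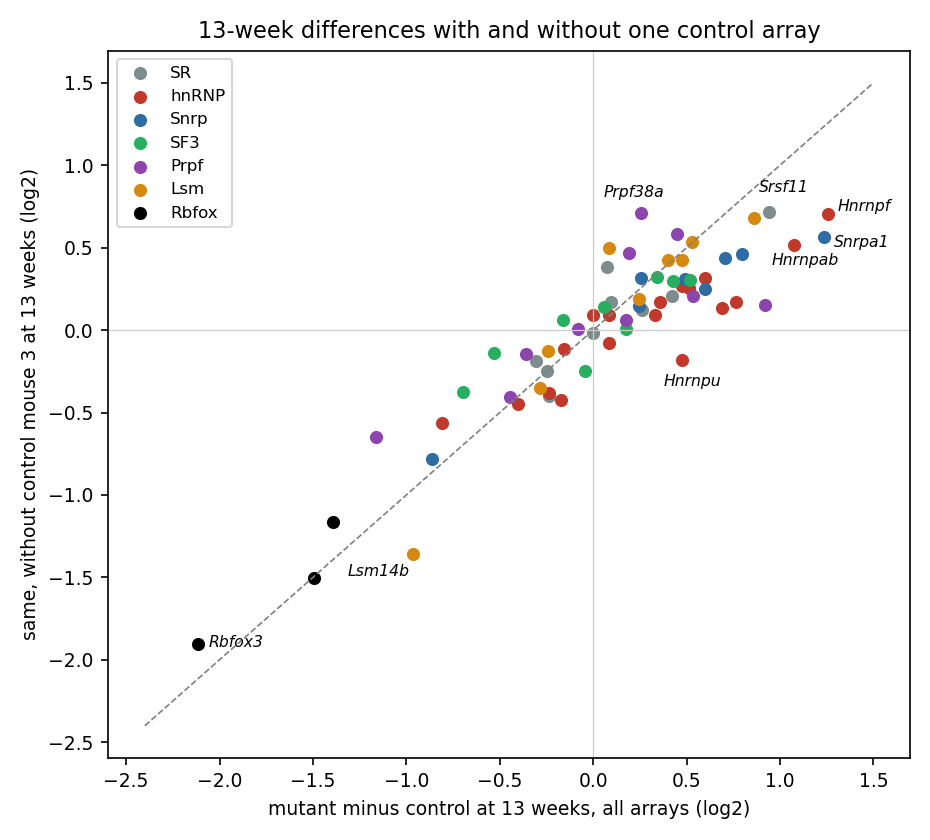
Difference at 13 weeks, mutant minus control on the log2 scale, with all arrays (horizontal axis) and without control mouse 3 (vertical axis), 1 point per tested member and coloured by family. Points under the dashed line of equality on the right, such as Hnrnpf (1.26 and 0.70) and Snrpa1 (1.24 and 0.56), had smaller rises without that mouse. Rbfox1 stayed near the line (-1.49 and -1.51), and Rbfox3 had a smaller fall (-2.12 and -1.90).

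Of 9 SR protein genes, 1 passed at 13 weeks (11.1%, against 45.3% of all genes), with a family median of 0.0733. Leaving out control mouse 3 gave 2 higher (Srsf11 and Srsf9) and 1 lower (Srsf2), with a median of 0.125. Srsf11, which encodes an SR-related protein, had 10.57, 10.48 and 10.32 in the 13-week mutants and 9.72, 9.76 and 9.07 in the controls. The groups were clearly apart (0.94 ± 0.22, 1.92-fold, adjusted p = 0.00416), and the difference was 0.72 without control mouse 3. At 9 weeks it had 10.87, 10.58 and 10.36 in mutants and 10.40, 9.88 and 10.17 in controls, with overlap. Srsf1, the founding member of the family, had differences of 0.02 at 9 weeks and -0.00 at 13 weeks, with all 12 values between 10.35 and 10.84. Srsf3 differed by 0.49 at 9 weeks (adjusted p = 0.169) and by 0.26 at 13 weeks (adjusted p = 0.288). A further Srsf3 probe set had a mean of 4.39 in 13-week mutants and 2.44 in 13-week controls, a difference of 1.95, while another differed by -0.64.

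SF3 genes encode the U2-bound complex that contacts the branch site. At 13 weeks 2 of 9 were higher, 1 was lower and 6 did not pass (33.3% called, against 45.3% of all genes). The median of 0.0567 turned to -0.107 under median centring. Only Sf3b6 of the 9 passed without control mouse 3. Sf3b6, the subunit that touches the branch-point adenosine, had 11.09, 11.09 and 10.98 in mutants and 10.73, 10.73 and 10.68 in controls. The shift was small but the spread was smaller still (0.34 ± 0.12, adjusted p = 0.0376). It was lost with sex as a term and passed in 4 of the 12 fits that left out 1 mouse. Sf3a2 differed by 0.52 (adjusted p = 0.0485) and passed in 1 of 12. Its other probe set differed by -1.27, and the mean of both by -0.38. Sf3b5 was lower, with 9.15, 9.08 and 9.33 in mutants and 9.43, 9.69 and 10.53 in controls (-0.70 ± 0.25, adjusted p = 0.0376). Without control mouse 3 the difference was -0.37 (adjusted p = 0.0829). Sf3b1, the large subunit, differed by -0.04 at 9 weeks and by 0.18 at 13 weeks and passed at neither age.

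Several Prpf genes encode proteins of the U4/U6.U5 particle or of the catalytic core. At 13 weeks 1 of 10 passed (10%, against 45.3% of all genes), with a family median of 0.183. When control mouse 3 was left out, 2 Prpf genes were higher, Prpf38a (0.71, adjusted p = 0.00125) and Prpf8 (0.47, adjusted p = 0.0362), Prpf40b was lower and the median was 0.107. Prpf40b, for a protein that works with the U1 particle, had 4.93, 4.33 and 4.93 in mutants and 5.32, 5.44 and 6.91 in controls. The mutants lay below all controls (-1.16 ± 0.37, 2.23-fold, adjusted p = 0.024), and the difference was -0.65 without control mouse 3 (adjusted p = 0.048). The call was lost without mutant mouse 2 (adjusted p = 0.101). Prpf40b was also lower in 13-week than in 9-week mutants (-1.34, adjusted p = 0.0162). Prpf8, the scaffold of the catalytic centre, differed by -0.02 at 9 weeks and 0.19 at 13 weeks. Prpf19, for a ubiquitin ligase of the spliceosome, differed by 0.17 and -0.36. With all arrays Prpf8 and Prpf19 passed at neither age.

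Prpf31, for a protein that holds the U4/U6.U5 particle together, changed its difference between the ages. It had 8.64, 8.55 and 8.76 in mutants and 8.10, 8.27 and 8.42 in controls at 9 weeks, and 7.77, 7.85 and 8.31 in mutants and 8.21, 8.56 and 8.49 in controls at 13 weeks. Mutants lay above controls at the younger age and overlapped them from below at the older. The interaction was -0.83 ± 0.25 (limma adjusted p = 0.0367), although neither age passed on its own (adjusted p = 0.23 and 0.058). That call held in 4 of the 12 fits that left out 1 mouse, and it was lost with the gene's probe sets averaged. Prpf31 was lower in 13-week than in 9-week mutants (-0.67, adjusted p = 0.0116). Its other probe set differed by 0.29 in that comparison and by 0.01 in the interaction. With the probe sets averaged, the interaction was -0.41 (adjusted p = 0.218) and the difference between mutant ages -0.19 (adjusted p = 0.37), and neither passed.

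Over all members, 5 of 66 passed the interaction (7.58%), against 18.4% of all genes, and all 5 were negative (6.38% of all genes): Snrpn, Prpf31 and the 3 Rbfox genes. Between 13-week and 9-week mutants 6 passed (9.09%, against 32.7% of all genes), all lower in the older mice (16.6% of all genes): Snrpn, Prpf31, Prpf40b, Lsm14b, Rbfox1 and Rbfox3. Lsm14b differed by -1.03 in that comparison (adjusted p = 0.0147). These comparisons share arrays with those by genotype, and age overlapped with sex among the mutants, as given above. Without control mouse 3 at 13 weeks the count between mutant ages was 13, against 46.6% of all genes, with 3 higher (20.6% of all genes) and 10 lower (25.9%).

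At 9 weeks 0 of 66 members passed, against 5% of all genes (2.02% higher and 2.98% lower), and 13 had an unadjusted p under 0.05 in limma (19.7%, against 21.4% of all genes). Of those 13, 10 were higher and 3 lower in mutants. The lowest adjusted p was 0.0623, for Snrpb, which had 10.27, 10.18 and 10.42 in mutants and 9.69, 9.85 and 9.67 in controls (0.55). In 18 members every mutant lay above every control (27.3%, against 15% of all genes), and in 6 every mutant lay below (9.09%, against 20.6%).

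The count at 9 weeks changed with an array of the other age. Without control mouse 3 at 13 weeks, which is in neither 9-week group but enters the spread pooled over all 4 groups, 11 members passed (16.7%, against 16.6% of all genes), 9 higher (6.43% of all genes) and 2 lower (10.2%). The higher ones were Snrpa1, Snrpb, Snrpg, Lsm4, Lsm8, Hnrnpf, Hnrnph3, Sf3a3 and Prpf38a, with differences between 0.51 and 0.79. The lower ones were Sf3b5 (-0.64) and Srsf2 (-0.44). For Hnrnpf the SD within groups, pooled over the 4 groups, was 0.498 with that array and 0.133 without it. These names follow from leaving out that array and were seen only afterwards. Without mutant mouse 3 at 9 weeks 1 member passed, Hnrnph1, which was higher, as were 1.17% of all genes.

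Members that passed at 13 weeks were compared with their own 9-week values, which come from other mice. Of the 14 higher at 13 weeks, 12 had a positive difference at 9 weeks, and in 10 all 9-week mutants lay above all 9-week controls (85.7% and 71.4%). Over all 1932 genes higher at 13 weeks those shares were 72.3% and 28.4%. Of the 8 lower at 13 weeks, 6 had a negative difference at 9 weeks, the exceptions being Snrpn and Rbfox2, and in 3 all mutants lay below (75% and 37.5%). Over all 1812 genes lower at 13 weeks those shares were 85.3% and 50%. The difference of these shares was not tested.

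**Figure D5:**
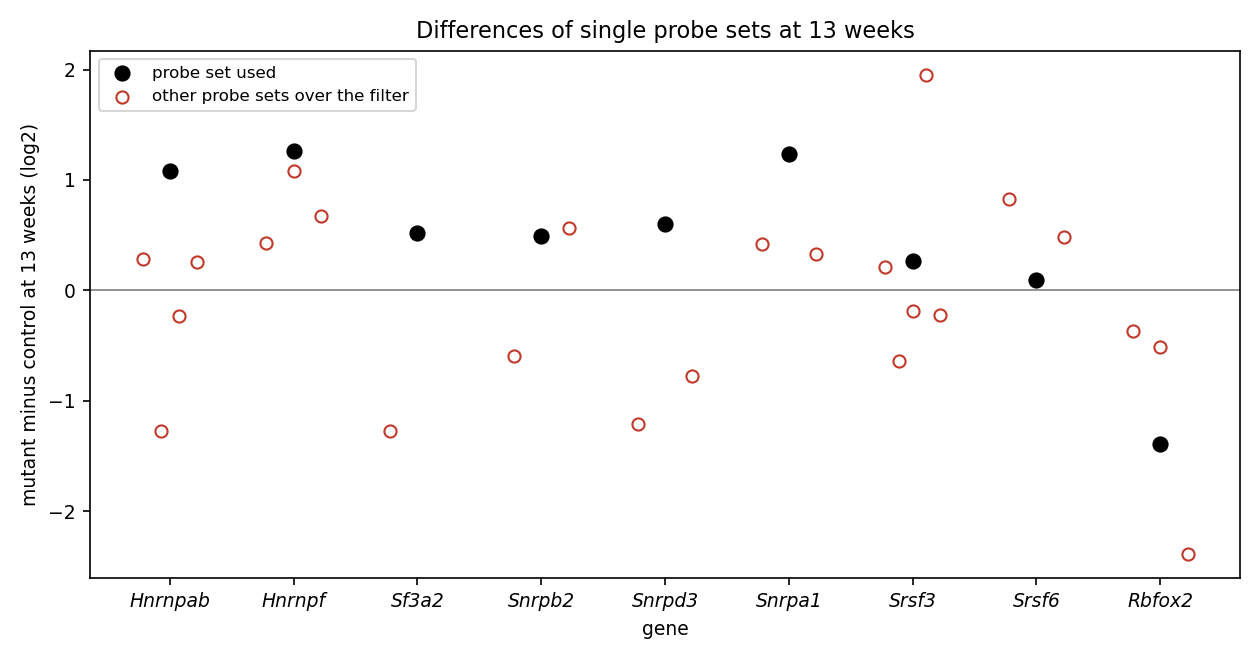
Difference at 13 weeks, mutant minus control on the log2 scale, for each probe set over the filter of 9 members, filled where it stood for the gene and open otherwise. Hnrnpab, Sf3a2, Snrpb2 and Snrpd3 have probe sets on both sides of 0, while those of Hnrnpf, Snrpa1 and Rbfox2 lie on 1 side.

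Probe sets mattered for several calls, as the plot of single probe sets shows. Of the 22 members called at 13 weeks, 10 had other probe sets over the filter, and in 3 of them (Hnrnpab, Sf3a2 and Snrpb2) a second one had a difference of the other sign of 0.5 log2 or more. Snrpd3, named after its values were seen, did not pass (0.60, adjusted p = 0.1), and its other probe sets differed by -1.21 and -0.78. That at -1.21 passed when every probe set was tested on its own (limma adjusted p = 0.00142). The 3 probe sets of Snrpa1 agreed in sign, the other two differing by 0.42 and 0.33. Rbfox1, Rbfox3 and Snrpn had 1 probe set each with a symbol of its own.

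Genes of the wider splicing machinery outside these families were set beside the members. Of 50 tested spliceosome proteins, 4 were higher and 3 lower at 13 weeks (14%, against 45.3% of all genes), and 2 were higher at 9 weeks (4%, against 5%). Phf5a, a small SF3b subunit, averaged 10.39 ± 0.12 in mutants and 9.23 ± 0.26 in controls at 13 weeks (SD, n = 3; difference 1.16, limma adjusted p = 0.000141) and differed by 0.91 at 9 weeks (adjusted p = 0.0159). Cwc27, a peptidyl-prolyl isomerase-like protein of the activated spliceosome, differed by 1.04 at 13 weeks (adjusted p = 0.000874) and by 0.88 at 9 weeks (adjusted p = 0.0275). Snrnp48, of the minor spliceosome, was higher at 13 weeks (1.02, adjusted p = 0.00527), and Txnl4a, of the U5 particle, was lower (-0.55, adjusted p = 0.00712).

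Of 5 tested genes of the exon junction complex, which marks spliced mRNA, Rbm8a was the 1 that passed at either age (20%). Of all genes 45.3% passed at 13 weeks and 5% at 9 weeks. Rbm8a was higher at both ages (1.05 at 13 weeks, adjusted p = 0.00078, and 0.78 at 9 weeks, adjusted p = 0.0379). Of 12 snRNP assembly genes, 25% passed at 13 weeks (45.3% of all genes) and 8.33% at 9 weeks (5% of all genes). Gemin2 was higher at 13 weeks (1.27, adjusted p = 0.00443). Lower at that age were Coil, the Cajal body scaffold (-0.70, adjusted p = 0.00123), and Prmt5, which methylates Sm proteins (-0.37, adjusted p = 0.0475). Tgs1, which methylates the cap of small nuclear RNAs, was lower at 9 weeks (-0.61, limma adjusted p = 0.031). It differed by 0.16 at 13 weeks, with an interaction of 0.77 (adjusted p = 0.0166). Of 7 kinases of SR proteins, Clk4 was higher (0.65) and Srpk1 lower (-0.57) at 13 weeks (28.6%, against 45.3% of all genes). The 9-week calls of Phf5a, Cwc27, Rbm8a and Tgs1 were each lost in some fits that left out 1 mouse of that age.

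Of 38 tested other regulators of alternative splicing, 8 were higher and 6 lower at 13 weeks (36.8%, against 45.3% of all genes). Ptbp1, a repressor of neuronal exons that is low in neurons and present in glia, averaged 8.50 ± 0.14 in mutants and 6.87 ± 0.21 in controls (SD, n = 3; difference 1.63, limma adjusted p = 5.11e-05) and differed by 0.00 at 9 weeks. Celf4 and Elavl3, both mainly neuronal, were lower (-0.99, adjusted p = 0.000733, and -1.15, adjusted p = 0.00127), as was Ewsr1 (-0.71, adjusted p = 0.00143). Ptbp3 was lower at 9 weeks (-1.03, adjusted p = 0.0468) and higher at 13 weeks (0.79, adjusted p = 0.029), with an interaction of 1.82 (adjusted p = 0.0055). Its 9-week call was lost in 10 of the 12 fits that left out 1 mouse. The marker levels given above for neurons and glia moved with these regulators at 13 weeks, and their part was not tested.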

How the data were processed

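Deposited values were the authors' log2 signals after GCRMA, per the labels and the submitters' processing notes, for 22690 probe sets on 12 Affymetrix arrays. The version of GCRMA and the annotation used were not given in the sources used here. Values were used as deposited. Of the probe sets, 64 array controls, 691 with several symbols and 1555 with none were left out, among them 15 matching the member rule (5 genes have such probe sets alone). Each gene was represented by its probe set with the highest mean, and genes above their array's 40th percentile (3.51 to 3.81) in at least 3 arrays were tested.

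A limma model of the 4 group means (version 3.58.1 in R 4.3.3, lmFit and eBayes; 8 residual degrees of freedom) covered all arrays. Two-sided p-values were corrected by Benjamini-Hochberg over all 8256 genes. Folds are powers of the log2 differences, and GCRMA compresses low signals. The fit was tested on simulated data. Members, lists, naming rule and tests were chosen with earlier results of these data known. The named genes were all members past the test at 9 weeks, in the interaction or between control ages, up to 4 per family past it at 13 weeks with the smallest p, the 2 per family with the highest mean, and those with opposing probe sets. Replicate numbers were not taken to pair the mice. Correlations of deviations between same-numbered mice of the same age were -0.0731 to 0.184. Differently numbered mice were not compared, so these values cannot settle whether the numbers pair mice. The number of arrays limits the precision. Sex was read from Xist and Eif2s3y.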

Additional observations from a re-analysis of the deposited data

Results flagged for a closer look

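For 5 members the genotype difference changed between 9 and 13 weeks by limma's interaction test (adjusted p under 0.05). The 13-week difference less the 9-week difference was -1.08 for Snrpn, -0.83 for Prpf31, -1.09 for Rbfox1, -1.89 for Rbfox2 and -1.72 for Rbfox3. The values for Snrpn and the 3 Rbfox genes passed in all 12 fits that left out 1 mouse, and that for Prpf31 in 4 of 12; averaging its probe sets gave -0.41 and an adjusted p of 0.218. For Rbfox2 the 13-week controls also lay above the 9-week controls with the probe set used. The interactions of its other 3 probe sets were negative too, and none passed.

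Hnrnpc, for a protein that binds uridine tracts, was the sixth. Its log2 signals were 11.62, 11.60 and 11.51 in mutants and 11.73, 11.70 and 11.67 in controls at 9 weeks, all mutants below. At 13 weeks they were 11.79, 11.55 and 11.86 in mutants and 11.46, 11.49 and 10.71 in controls, all mutants above. The difference of the differences was 0.637 and did not pass (limma adjusted p = 0.139). Control mouse 3 had the lowest value, and without it the difference of the differences was 0.38 (adjusted p = 0.12).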

How the results depend on the processing

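Of 66 members, 0 passed at 9 weeks. With no filter, a filter at the 60th percentile, probe sets averaged per gene or sex as a term, 1 did. With only the groups compared 8 did, and with array weights 21. With every probe set on its own the counts are of member probe sets, not genes, and 1 passed. The rule matched 154 such probe sets before the filter, several for some genes. At 13 weeks the 22 became 7 at an adjusted p under 0.01 or with only the groups compared. With every probe set on its own 36 member probe sets passed at that age. In the interaction the 5 became 11 with array weights and 3 at an adjusted p under 0.01. Between mutant ages the 6 became 11 with median centring, 23 with array weights and 3 at an adjusted p under 0.01. The count was 10 with only the groups compared, and 12 member probe sets passed with every probe set on its own. Between control ages the 1 became 2 with no filter or a trended and robust prior and 5 with array weights. It became 0 with a filter at the 60th percentile, the mean of probe sets, an adjusted p under 0.01 or only the groups compared. With every probe set on its own 2 member probe sets passed. Leaving out each mouse in turn gave 0 to 11 at 9 weeks, 10 to 22 at 13 weeks, 4 to 6 in the interaction, 4 to 13 between mutant ages and 0 to 1 between control ages. With the replicate number as a block the counts were 0 at 9 weeks, 20 at 13 weeks, 5 in the interaction, 7 between mutant ages and 0 between control ages. Whether the numbers pair mice is not known. Array weights, which give control mouse 3 at 13 weeks a weight of 0.0784, raised the count at 13 weeks to 31. With probe sets averaged per gene the 13-week difference turned to -0.0105 for Hnrnpab and -0.375 for Sf3a2. The share of all genes that passed can change with the setting too. At 9 weeks it was 5% with all arrays and 16.6% without control mouse 3 at 13 weeks. For most settings no such share is given here, so these counts do not show a change particular to the members. The causes were not tested. Signal over background limits Lsm12 and other members near the filter.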
